A study of Mus musculus with 23 samples.

Results

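Lungs of LPS-exposed mice given native alpha1-antitrypsin (AAT) were compared with lungs of mice exposed to LPS only, by RNA-seq of whole lung with 1 library per mouse. LPS is the lipopolysaccharide of the bacterial outer membrane, breathed here as an aerosol. The comparison takes 10 of the 23 libraries of the series, chosen by their labels: replicates 4101 to 4105, LPS and native AAT (LPS+nAAT, n = 5), and replicates 1101 to 1105, LPS only (LPS, n = 5). All mice were male Balb/c. Both groups inhaled the aerosol, at an LPS concentration of 0.21 mg/ml, in 3 daily sessions lasting 10 min. In the LPS+nAAT group native AAT followed into the peritoneum at 4 mg/kg, 1 h after each exposure, and the design text gives saline for mice that received no AAT. The experiment ended 6 h after the final injection. A group exposed to clean air (air, n = 3) and groups given oxidized or recombinant AAT after LPS (LPS+oxAAT and LPS+recAAT, n = 5 each) served for side by side values. Libraries of these groups were also fitted in the same model, so the p-values of the comparison rest on all 23 libraries. No group received nAAT without LPS, so an action of nAAT on LPS-exposed lung and one it would have in any lung cannot be told apart here.

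AAT is a serine protease inhibitor of plasma whose best known target is neutrophil elastase. Inhaled LPS is sensed through Toll-like receptor 4, which drives NF-kB and MAP kinase signalling, chemokine production and the entry of neutrophils into the airspaces. Glucocorticoids, which restrain this response, act through a nuclear receptor that induces genes such as Fkbp5, Zbtb16 and Zfp36, while dividing cells switch on a shared set of mitotic genes late in the cell cycle.

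Native AAT after LPS went with higher mitotic transcripts, higher Zbtb16, Fkbp5 and Klf10, and lower Zfp36, Cxcl2, Klf2 and Spry4. Only Klf10 and Zfp36 passed at an adjusted p under 0.05 in every fit run. Zbtb16, Cxcl2 and most mitotic genes did not pass when only the 10 compared libraries were fitted. Of 17148 genes tested, 102 differed between LPS+nAAT and LPS at an adjusted p under 0.05 (edgeR quasi-likelihood test, Benjamini-Hochberg over all tested genes), which is 0.595% of them. Such genes are called below. The calls comprised 77 higher genes (0.449%) and 25 lower ones (0.146%), and 12 of them changed at least 2-fold, 8 higher and 4 lower. At an unadjusted p under 0.05 there were 2528 genes. In 521 genes (3.04%) every LPS+nAAT library lay above or below every LPS library in CPM, counts scaled to a common library size, 341 of them above and 180 below. Of the called genes, 83 separated in that way and 19 overlapped. The 12 genes in each direction described first were taken from the 83, so that their separation is a description and supports nothing. Called genes passed over by this choice include Spc25 (1.22), Depdc1a (1.06) and Nuf2 (1.03), whose groups overlapped, and 1700028J19Rik (-1.45) and Nat8f7 (-1.17), whose average level was under 1 CPM, all as log2 fold changes. The median log2 fold change, LPS+nAAT over LPS, was 0.00 over all genes tested.

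Counts assigned to genes totalled 21405353 to 41383482 per library in LPS+nAAT and 19715273 to 33785728 in LPS. All 10 libraries carried high levels of lung-defining transcripts, with Sftpc at 12292 to 17033 CPM, Ager at 1994 to 3875 CPM, Scgb1a1 at 21003 to 43740.1 CPM and Cdh5 at 638 to 1065 CPM. The libraries did not form 2 clusters by group: LPS+nAAT replicates 4103 and 4104 lay at opposite ends of the first principal component, at scores of -36.2 and 36.8, and the other 8 lay between them. In whole lung RNA, fewer cells of a type and less RNA per cell cannot be told apart.

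Zbtb16, a zinc finger transcription factor and a textbook glucocorticoid target, showed the largest rise (chr9:48654297-48836222, minus strand, GRCm38). It had 125, 259, 226, 226 and 195 CPM in LPS+nAAT lungs, against 30.0, 5.46, 10.5, 13.8 and 54.7 CPM in LPS lungs. The lowest LPS+nAAT library lay above the highest LPS library, and the LPS group itself was wide, with replicate 1105 highest and replicate 1102 lowest. The rise was 8.97-fold (log2 fold change 3.17 ± 0.61 SE, edgeR adjusted p = 0.0262), and air lungs had 10.4, 8.50 and 7.86 CPM. The call was lost without LPS replicate 1101 (adjusted p = 0.0526), 1102 (0.0638) or 1104 (0.0939), or without LPS+nAAT replicate 4103 (0.0589) or 4104 (0.0620).

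Fkbp5 encodes a cochaperone that binds the glucocorticoid receptor complex and lowers its hormone affinity (chr17:28399094-28517527, minus strand). Fkbp5 had 48.8, 89.1, 65.1, 87.2 and 62.8 CPM in LPS+nAAT lungs, against 18.6, 18.4, 25.9, 25.1 and 30.6 CPM in LPS lungs. Every LPS+nAAT library exceeded every LPS library. LPS libraries lay above the air libraries at 14.4, 13.8 and 11.1 CPM, but LPS over air did not pass (log2 fold change 0.86, edgeR adjusted p = 0.143). With nAAT the rise over LPS was 2.97-fold (log2 fold change 1.57 ± 0.27 SE, edgeR adjusted p = 0.0101). It was called in each fit that left out 1 of the 10 libraries. Hif3a, a hypoxia-inducible factor subunit (chr7:17031507-17062427, minus strand), had 8.48, 15.0, 6.999, 10.8 and 8.42 CPM in LPS+nAAT lungs, against 3.13, 3.60, 2.45, 4.43 and 4.76 CPM in LPS lungs. The groups did not overlap, and replicate 4102 was highest for Hif3a, Fkbp5 and Zbtb16 alike. Hif3a rose 2.72-fold (log2 fold change 1.44 ± 0.32 SE, edgeR adjusted p = 0.0367), a call lost in 8 of the 10 fits that left out 1 library, those without replicate 1105 or 4101 being the exceptions, with an adjusted p of up to 0.0962 (without 4104).

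Other glucocorticoid-induced genes moved both ways. Of the 27 tested members of that list, 3 rose (Zbtb16, Fkbp5 and Hif3a) and 2 fell (Zfp36 and Dusp1), with a median log2 fold change of -0.08 and 12 members above 0. Over all genes tested, 0.449% were called higher and 0.146% lower. Next by p were Nfkbia, the NF-kB inhibitor (-0.44, 0.0512 for log2 fold change and edgeR adjusted p), Anxa1, the anti-inflammatory annexin (0.35, 0.0866), and Errfi1, an inhibitor of the EGF receptor (-0.52, 0.112), none of which passed.

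The Fkbp5 promoter is shown because Fkbp5 had the smallest p of the 3 higher glucocorticoid-induced genes, and it was chosen after its values were seen. It spans 250 bases before to 50 after the start site (chr17:28486100-28486399, minus strand, RefSeq, GRCm38.p6). Capitals mark CCAAT boxes on either strand and the E-box CACGTG, and no glucocorticoid response element core (ACANNNTGT) lies in this window.
Fkbp5: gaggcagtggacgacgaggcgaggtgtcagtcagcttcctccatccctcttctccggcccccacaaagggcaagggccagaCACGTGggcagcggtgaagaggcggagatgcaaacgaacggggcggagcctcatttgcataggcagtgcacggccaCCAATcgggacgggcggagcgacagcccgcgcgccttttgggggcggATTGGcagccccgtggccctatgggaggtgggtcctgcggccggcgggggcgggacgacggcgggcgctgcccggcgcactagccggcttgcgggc

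Genes of mitosis made up the largest group of calls, all higher. Of 36 mitosis and G2/M genes, 18 were called higher, beside 0.449% over all genes tested, and none lower. All 36 had a log2 fold change above 0, with a median of 0.64. The median exon GC of the list was 46.2%. In the class of tested genes with an exon GC of 45.9% to 47.7%, 63.5% lay above 0. Their summed levels were 367, 520.4, 433, 423 and 393 in LPS+nAAT libraries, against 267, 251, 317, 254 and 318 in LPS libraries (CPM). The groups did not overlap in this sum, with replicate 4102 highest and replicate 4101 lowest of the LPS+nAAT libraries. The comparison of LPS with air, which shares the LPS libraries and called 753 genes (4.39%), is given beside some genes as a second value.

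Ccna2, cyclin A2, which drives S phase and entry into mitosis (chr3:36564865-36572150, minus strand), had 13.8, 16.5, 16.1, 13.4 and 14.6 CPM in LPS+nAAT lungs, against 5.93, 6.81, 9.60, 5.51 and 8.85 CPM in LPS lungs. Each LPS+nAAT library lay above each LPS library, and air lungs had 4.83, 3.66 and 3.33 CPM. Ccna2 rose 2.03-fold (log2 fold change 1.02 ± 0.14 SE, edgeR adjusted p = 0.00138), with 0.90 for LPS over air (adjusted p = 0.00279). Ccnb1, cyclin B1, the partner of Cdk1 at mitotic entry (chr13:100778650-100786570, minus strand), had 6.18, 8.91, 9.93, 9.27 and 7.77 CPM in LPS+nAAT lungs, against 4.33, 2.60, 4.41, 4.33 and 5.90 CPM in LPS lungs. The groups stood apart, though replicate 4101 at the low end of LPS+nAAT was close to replicate 1105 at the high end of LPS. The rise of Ccnb1 was 1.94-fold (log2 fold change 0.95 ± 0.17 SE, edgeR adjusted p = 0.0101), with 1.25 for LPS over air (adjusted p = 0.000602). Cdc25c, the phosphatase that activates Cdk1 (chr18:34732993-34751533, minus strand), had 1.76, 2.26, 2.22, 1.33 and 1.68 CPM in LPS+nAAT lungs, against 0.749, 0.801, 0.924, 1.05 and 0.889 CPM in LPS lungs. These are low levels, with replicate 4104 lowest of the LPS+nAAT libraries and replicate 1104 highest of the LPS libraries. Cdc25c rose 2.10-fold (log2 fold change 1.07 ± 0.20 SE, edgeR adjusted p = 0.0148). The calls of Ccna2, Ccnb1 and Cdc25c held in every fit that left out 1 library.

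Other called members of the mitosis list covered the kinetochore and its checkpoint (Nuf2, 1.03; Bub1, 0.69; Cenpf, 0.70), the mitotic kinases Cdk1 (0.56), Plk1 (0.57) and Aurkb (0.63), and the spindle proteins Nusap1 (0.78), Tpx2 (0.64) and Kif20a (0.74), all as log2 fold changes. Ube2c, the ubiquitin-conjugating enzyme of the anaphase-promoting complex, had 8.92 ± 1.26 CPM in LPS+nAAT lungs and 5.25 ± 1.08 CPM in LPS lungs (SD, n = 5 each, with log2 fold change 0.77 ± 0.16 SE, edgeR adjusted p = 0.030). Prc1, which bundles microtubules of the spindle midzone, had 17.1 ± 2.46 CPM in LPS+nAAT lungs and 10.2 ± 2.33 CPM in LPS lungs (SD, n = 5 each, with log2 fold change 0.75 ± 0.15 SE, edgeR adjusted p = 0.0185). Top2a, the topoisomerase of dividing cells, had 39.4 ± 7.39 CPM in LPS+nAAT lungs and 24.5 ± 4.33 CPM in LPS lungs (SD, n = 5 each, with log2 fold change 0.68 ± 0.14 SE, edgeR adjusted p = 0.0233), and Mki67, the proliferation marker, had 51.0 ± 11.2 CPM in LPS+nAAT lungs and 33.9 ± 5.36 CPM in LPS lungs (SD, n = 5 each, with log2 fold change 0.59 ± 0.13 SE, edgeR adjusted p = 0.0367). Cyclin B2 (Ccnb2, 0.62) and Ckap2l, a spindle protein (0.65), completed the 18. The kinesins Kif23 (0.52, 0.0527 for log2 fold change and adjusted p), Kif11 (0.74, 0.0527) and Kif2c (0.68, 0.0585) had the smallest p among the members that did not pass.

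A further 7 called genes outside the lists act on the spindle, kinetochore or new chromatin, and all rose: Spc25, Depdc1a, Kif20b, Kif15, Asf1b, Spag5 and Knstrn, with log2 fold changes of 0.57 to 1.22. Of these, Kif15, a mitotic kinesin, had 5.62 ± 1.23 CPM in LPS+nAAT lungs and 3.34 ± 0.762 CPM in LPS lungs (SD, n = 5 each, with log2 fold change 0.75 ± 0.16 SE, edgeR adjusted p = 0.0303). Fewer calls fell among DNA replication genes. Of 34 replication and G1/S genes, 3 were called higher, beside 0.449% over all genes tested, and none lower. All 34 lay above 0, and the median log2 fold change was 0.28. The 3 were Rrm2, the regulatory subunit of ribonucleotide reductase (0.70 ± 0.11 SE, edgeR adjusted p = 0.00530), Prim1, the DNA primase (0.48 ± 0.11, 0.0367), and Pclaf, a partner of the sliding clamp PCNA (0.81 ± 0.19, 0.0391). Summed levels of the replication list were 569 to 669.6 CPM in LPS+nAAT lungs and 500.1 to 554 CPM in LPS lungs, and the groups did not overlap. With the lists, 28 of the 77 higher genes were of the cell cycle, the 7 outside the lists being assigned by hand with their calls known. Of the 28, 21 did not overlap between the groups, beside 63 of all 77 higher calls.

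The number of mitotic calls depended on which libraries were fitted, while the median change stayed near its value. The median log2 fold change of the list was 0.55 to 0.70 over the 10 fits that left out 1 library, but the members called numbered 4 without LPS replicate 1101, 1102 or 1104, 6 without LPS+nAAT replicate 4102 or 4103, and 7 without 4104. A fit of the LPS+nAAT, LPS and air libraries called 3 of the 36 (41 genes in all, 0.244% of those tested) and a fit of only the 10 libraries called 1, Ccna2 (16 genes in all, 0.0992%), with medians of 0.63 in both.

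**Figure D1:**
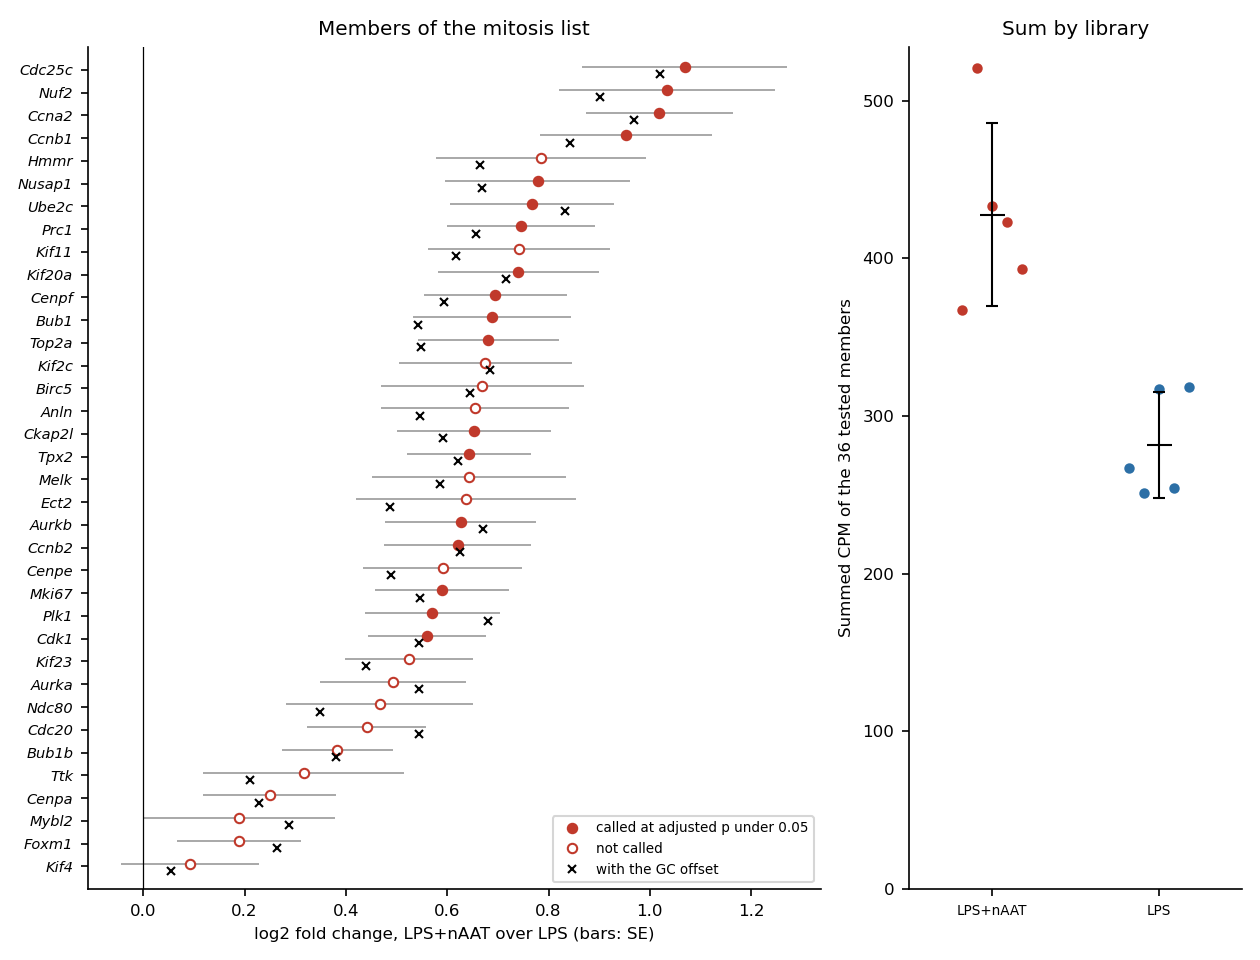
Left, log2 fold change (LPS+nAAT over LPS) of the 36 tested mitosis and G2/M genes, with bars of 1 SE, filled where called, and crosses for the fit with the GC offset; right, summed CPM of the list by library, with mean and SD (n = 5 each). All 36 lie above 0, and the LPS+nAAT sums of 367 to 520.4 lie above the LPS sums of 251 to 318.

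Promoters of mitotic genes often hold a cell cycle homology region (CHR, TTTGAA) and CCAAT boxes. In the 300 bases around the start site, CHR letters occurred on either strand in 22 of the 30 tested mitosis genes with a RefSeq promoter (73.3%), in 17 of 60 called higher genes (28.3%) and in 2 of 21 called lower genes (9.52%), beside 12.4% over all tested genes and 17.9% over all promoters of the table. Of those 17 higher genes, 9 were among the 13 called mitosis genes (69.2%), and outside the mitosis list 8 of 47 held the letters (17.02%). CCAAT occurred in 73.3% of the mitosis genes, 60.0% of called higher genes and 38.1% of called lower genes, beside 37.9% of all tested genes and 37.4% of the table. The Ccnb1 promoter shows a pair of CCAAT boxes, in capitals, upstream of the start site (chr13:100786437-100786736, minus strand, RefSeq, GRCm38.p6).
Ccnb1: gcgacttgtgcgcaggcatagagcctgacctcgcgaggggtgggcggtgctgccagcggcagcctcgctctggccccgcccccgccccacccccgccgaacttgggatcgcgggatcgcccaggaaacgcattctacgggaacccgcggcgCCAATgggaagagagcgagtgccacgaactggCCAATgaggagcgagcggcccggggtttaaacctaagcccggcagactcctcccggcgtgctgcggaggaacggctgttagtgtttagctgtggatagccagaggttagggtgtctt

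Among Krüppel-like and immediate early factors the directions were mixed. Klf10, a transcription factor induced by TGF-beta (chr15:38291463-38300706, minus strand), had 60.6, 55.9, 53.3, 54.1 and 53.4 CPM in LPS+nAAT lungs, against 30.3, 20.9, 29.1, 25.9 and 38.5 CPM in LPS lungs. The LPS+nAAT libraries lay close together and above all LPS libraries, and air lungs had 38.3, 28.6 and 30.6 CPM. Klf10 rose 1.91-fold (log2 fold change 0.94 ± 0.12 SE, edgeR adjusted p = 0.000606). Its close relative Klf11 had 57.8 ± 5.68 CPM in LPS+nAAT lungs and 35.8 ± 5.62 CPM in LPS lungs (SD, n = 5 each), against 57.3 ± 6.16 CPM in air lungs (SD, n = 3). The groups given LPS did not overlap, and Klf11 rose 1.62-fold with nAAT (log2 fold change 0.69 ± 0.11 SE, edgeR adjusted p = 0.00773), while LPS over air was -0.68 (edgeR adjusted p = 0.00190).

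Klf2, a factor that blood flow induces in endothelium (chr8:72319033-72321656, plus strand), had 67.7, 54.5, 61.1, 43.0 and 68.6 CPM in LPS+nAAT lungs, against 109.8, 117, 110.2, 98.4 and 92.0 CPM in LPS lungs. Every LPS+nAAT library was below every LPS library, replicate 4104 being lowest, and air lungs had 129, 149 and 169.9 CPM. Klf2 was 1.79-fold lower (log2 fold change -0.84 ± 0.16 SE, edgeR adjusted p = 0.0148), and the call was lost without LPS+nAAT replicate 4104 (adjusted p = 0.0545). Csrnp1, an immediate early nuclear protein (chr9:119971163-119984658, minus strand), had 26.0, 22.2, 23.8, 20.4 and 25.5 CPM in LPS+nAAT lungs, against 32.1, 57.1, 54.3, 60.9 and 31.7 CPM in LPS lungs. LPS replicates 1101 and 1105 were low for their group, yet still above all LPS+nAAT libraries. Csrnp1 was 2.0-fold lower (log2 fold change -0.9999 ± 0.21 SE, edgeR adjusted p = 0.0278), a call lost without LPS replicate 1102 (adjusted p = 0.0763) or 1104 (0.101) or LPS+nAAT replicate 4102 (0.0529), 4103 (0.0641) or 4104 (0.0903). Fos, the AP-1 subunit, had 30.8 ± 2.84 CPM in LPS+nAAT lungs and 48.3 ± 10.7 CPM in LPS lungs (SD, n = 5 each), with LPS replicate 1101 inside the LPS+nAAT range (log2 fold change -0.65 ± 0.14 SE, edgeR adjusted p = 0.0330). Of 29 immediate early genes, 1 rose (Klf10) and 3 fell (Klf2, Csrnp1 and Fos), with a median log2 fold change of -0.20 and 7 members above 0. The shares called over all genes tested were 0.449% higher and 0.146% lower. Btg2 (-0.24, 0.106 for log2 fold change and adjusted p), Myc (-0.40, 0.115) and Jun (-0.28, 0.119) followed by p and did not pass.

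The Klf2 promoter is shown for the called immediate early gene of smallest p with an entry in the promoter table (chr8:72318812-72319111, plus strand, RefSeq, GRCm38.p6). None of the 8 motifs searched lies in it.
Klf2: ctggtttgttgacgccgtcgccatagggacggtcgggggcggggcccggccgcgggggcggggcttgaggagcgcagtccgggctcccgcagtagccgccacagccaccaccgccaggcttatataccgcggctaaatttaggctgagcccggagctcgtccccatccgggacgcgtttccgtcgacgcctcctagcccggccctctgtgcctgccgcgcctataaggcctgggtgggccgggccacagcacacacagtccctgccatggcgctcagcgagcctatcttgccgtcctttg

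Zfp36 encodes tristetraprolin, which binds AU-rich elements and speeds the decay of mRNAs such as those of Tnf and Cxcl2 (chr7:28376784-28380253, minus strand). It had 108, 113, 95.8, 116 and 127 CPM in LPS+nAAT lungs, against 209, 299.9, 193, 290.0 and 243 CPM in LPS lungs. The highest LPS+nAAT library was well below the lowest LPS library, and air lungs had 233, 302 and 361 CPM. Zfp36 was 2.21-fold lower (log2 fold change -1.14 ± 0.14 SE, edgeR adjusted p = 0.000349), the smallest p of the comparison. Spry4, an inhibitor of receptor tyrosine kinase signalling that this signalling itself induces, had 18.7, 21.5, 22.4, 20.8 and 21.4 CPM in LPS+nAAT lungs, against 34.1, 28.2, 43.2, 39.4 and 33.1 CPM in LPS lungs. The groups did not overlap, and air lungs had 50.7, 55.1 and 50.6 CPM. Spry4 was 1.70-fold lower (log2 fold change -0.77 ± 0.13 SE, edgeR adjusted p = 0.00773). Dusp1, the MAP kinase phosphatase, had 118 ± 11.9 CPM in LPS+nAAT lungs and 193 ± 41.5 CPM in LPS lungs (SD, n = 5 each), with LPS replicate 1101 inside the LPS+nAAT range (log2 fold change -0.70 ± 0.15 SE, edgeR adjusted p = 0.0270). These were the 3 calls among 21 genes of mRNA decay and MAP kinase feedback, all lower, beside 0.146% called lower over all genes tested. The median of the list was -0.00. The next members by p, Errfi1, the Zfp36 relative Zfp36l2 (0.24, 0.153 for log2 fold change and adjusted p) and Dusp6, the ERK phosphatase (-0.34, 0.201), did not pass.

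The Zfp36 promoter (chr7:28379179-28379478, minus strand, RefSeq, GRCm38.p6), shown for the called glucocorticoid-induced gene of smallest p, holds none of the 8 motifs.
Zfp36: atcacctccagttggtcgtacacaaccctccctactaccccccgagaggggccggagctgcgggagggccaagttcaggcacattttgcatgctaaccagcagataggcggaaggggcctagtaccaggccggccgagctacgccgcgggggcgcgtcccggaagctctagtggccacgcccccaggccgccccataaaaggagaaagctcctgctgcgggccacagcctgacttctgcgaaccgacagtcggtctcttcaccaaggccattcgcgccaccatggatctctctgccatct

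Among chemokines 1 gene fell. Cxcl2, which draws neutrophils through Cxcr2 (chr5:90903871-90905938, plus strand), had 3.06, 2.87, 3.31, 3.80 and 3.17 CPM in LPS+nAAT lungs, against 7.63, 6.91, 5.78, 4.92 and 14.04 CPM in LPS lungs. The LPS+nAAT libraries formed a narrow band below all LPS libraries, and LPS replicate 1105 was far above its group. Air lungs had 2.13, 1.85 and 2.23 CPM. Cxcl2 was 2.43-fold lower with nAAT (log2 fold change -1.28 ± 0.25 SE, edgeR adjusted p = 0.0186), while LPS over air was 1.92 (adjusted p = 0.000338). The call was lost without LPS+nAAT replicate 4103 (adjusted p = 0.0522) and held without LPS replicate 1105 (0.0336).

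Of 28 chemokine genes Cxcl2 alone was called, beside 0.595% over all genes tested, with 9 members above 0 and a median log2 fold change of -0.14. Its neighbour in sequence and function Cxcl1 had 7.39, 4.22, 7.33, 7.37 and 8.88 CPM in LPS+nAAT lungs, against 13.3, 9.06, 10.6, 11.02 and 18.9 CPM in LPS lungs. The groups did not overlap, and the difference missed the threshold (log2 fold change -0.85 ± 0.21 SE, edgeR adjusted p = 0.0585). Ccl6, a macrophage chemokine, had 545 ± 69.7 CPM in LPS+nAAT lungs and 386 ± 68.5 CPM in LPS lungs (SD, n = 5 each) without overlap and did not pass (log2 fold change 0.50 ± 0.13 SE, edgeR adjusted p = 0.0585). Cxcl15, a chemokine of lung epithelium, did not pass either (0.40, 0.162 for log2 fold change and adjusted p).

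None of 8 genes of the LPS-induced panel passed between LPS+nAAT and LPS, Cxcl1 included. Saa3, the lung-made serum amyloid, had 211 ± 29.3 CPM in LPS+nAAT lungs and 286 ± 88.6 CPM in LPS lungs (SD, n = 5 each), against 4.81 ± 1.17 CPM in air lungs (SD, n = 3) (LPS+nAAT over LPS -0.44, 0.312 for log2 fold change and adjusted p). Lcn2, the iron-siderophore binding lipocalin, had 1140.4 ± 153 CPM in LPS+nAAT lungs and 1193 ± 191 CPM in LPS lungs (SD, n = 5 each) (-0.06, 0.858). Il1b was at 56.0 ± 9.88 CPM in LPS+nAAT lungs and 51.1 ± 12.1 CPM in LPS lungs (SD, n = 5 each) (0.13, 0.794), Tnf at 3.87 ± 0.664 CPM in LPS+nAAT lungs and 5.14 ± 2.03 CPM in LPS lungs (SD, n = 5 each) (-0.40, 0.363), Cxcl5 at 4.83 ± 1.10 CPM in LPS+nAAT lungs and 7.70 ± 2.51 CPM in LPS lungs (SD, n = 5 each) (-0.68, 0.358) and Ccl2 at 1.93 ± 0.635 CPM in LPS+nAAT lungs and 1.92 ± 1.23 CPM in LPS lungs (SD, n = 5 each) (-0.01, 0.995). Il6 reached at most 0.236 CPM in LPS+nAAT and 0.391 CPM in LPS. Of the mouse's own AAT paralogs, counted here as reads that near-identical copies may share, Serpina1e was not tested and none of the others passed. Serpina1b had a log2 fold change of 0.03 (edgeR adjusted p = 0.954). The paralogs other than Serpina1b were low, the highest value in either group being 0.801 CPM (Serpina1d in LPS). None of 19 inflammatory cytokine genes, 26 acute phase and antimicrobial genes or 15 genes of the TLR4 receptor complex was called.

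Of 22 NF-kB subunits and feedback genes, 1 was called, lower: Tnfaip3, the ubiquitin-editing inhibitor A20, had 42.7, 39.6, 44.4, 41.8 and 40.5 CPM in LPS+nAAT lungs, against 43.7, 51.7, 55.5, 57.2 and 52.2 CPM in LPS lungs. LPS replicate 1101 overlapped the LPS+nAAT range, and the difference was 1.25-fold (log2 fold change -0.32 ± 0.07 SE, edgeR adjusted p = 0.0367). Beside this 1 call of 22, 0.595% were called over all genes tested. The list had 2 members above 0 and a median log2 fold change of -0.20, and the next members by p, Nfkbia (-0.44, 0.0512), Nfkb2 (-0.33, 0.0552) and Tnip1 (-0.27, 0.101), did not pass. The Cxcl2 promoter, shown as the called chemokine, holds a pair of NF-kB letters (GGNNTTTCC) in capitals, 96 and 77 bases upstream of the start site (chr5:90903649-90903948, plus strand, RefSeq, GRCm38.p6). Such letters occur in 6.05% of the promoters of all tested genes, in 2 of 21 called lower genes and in 1 of 60 called higher genes.
Cxcl2: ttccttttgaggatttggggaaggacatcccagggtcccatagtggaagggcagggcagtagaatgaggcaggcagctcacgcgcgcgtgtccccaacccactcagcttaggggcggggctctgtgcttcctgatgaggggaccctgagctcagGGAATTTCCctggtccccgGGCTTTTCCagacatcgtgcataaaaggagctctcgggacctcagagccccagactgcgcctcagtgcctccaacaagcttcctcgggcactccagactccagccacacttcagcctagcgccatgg

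**Figure D2:**
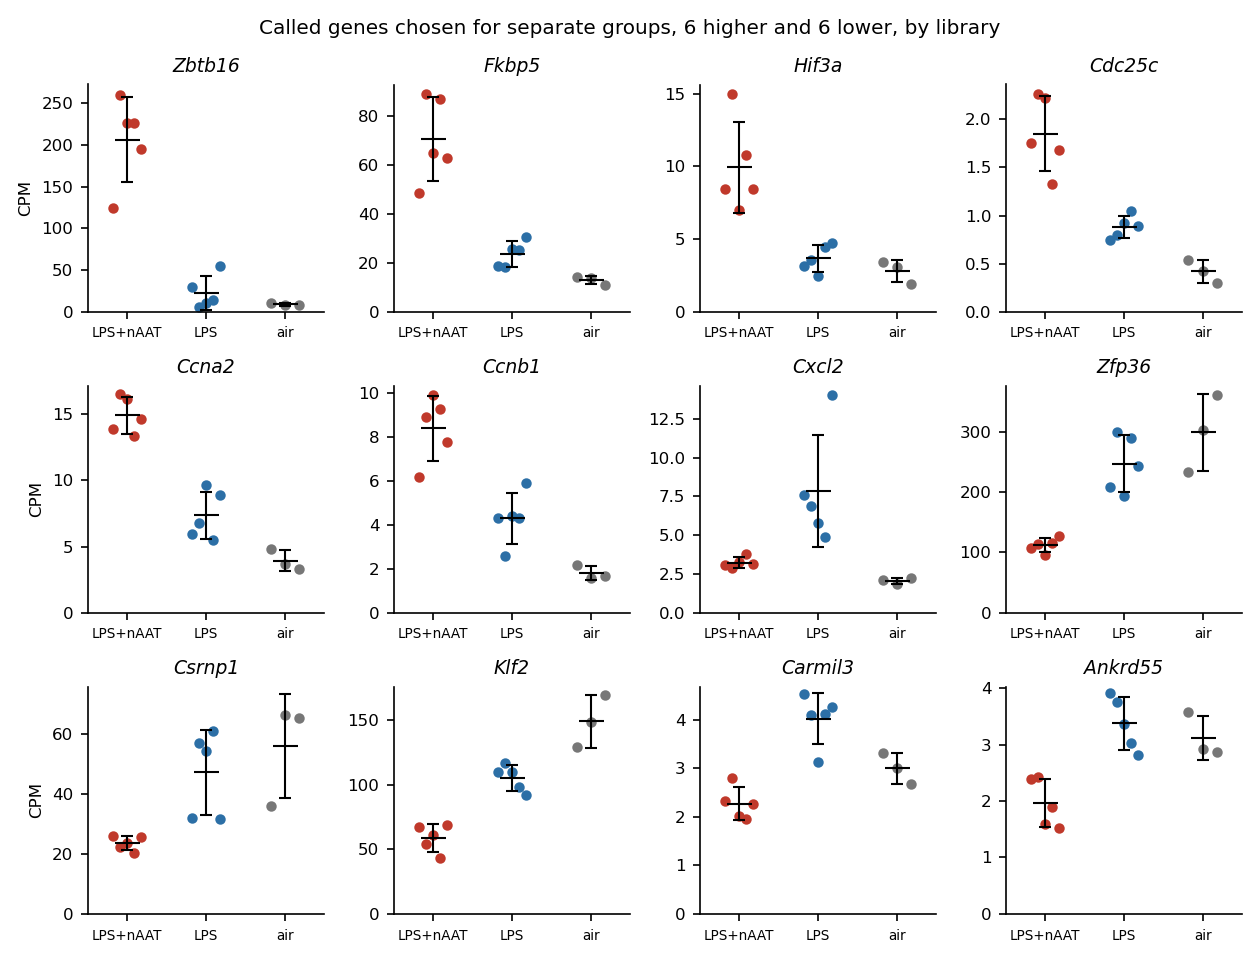
CPM by library of the 6 higher and 6 lower called genes of largest fold change among those chosen for an average log2 CPM of 0 or more and groups that do not overlap, with points for LPS+nAAT (n = 5), LPS (n = 5) and air (n = 3) and mean and SD as bars. The choice of genes fixes that LPS+nAAT and LPS points separate. Zbtb16, for example, lies at 125 to 259 CPM in LPS+nAAT and 5.46 to 54.7 CPM in LPS.

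Markers of alveolar macrophages mostly lay above 0, at 22 of 25, with a median log2 fold change of 0.33. Of the 25, 2 were called, both higher, beside 0.595% called over all genes tested. In 6 of the 25 the groups did not overlap, all 6 higher, beside 3.04% over all genes tested. Olr1, the scavenger receptor for oxidized LDL, had 36.6, 43.1, 49.1, 43.8 and 34.3 CPM in LPS+nAAT lungs, against 27.0, 21.6, 33.1, 25.7 and 30.6 CPM in LPS lungs. Spp1, osteopontin, had 107, 93.5, 105, 97.1 and 96.2 CPM in LPS+nAAT lungs, against 74.9, 57.3, 74.2, 75.2 and 57.0 CPM in LPS lungs. The groups did not overlap for either gene (Olr1 0.58 ± 0.13 SE, edgeR adjusted p = 0.0338; Spp1 0.56 ± 0.12, 0.0354). The summed alveolar macrophage markers were 2795 to 3309.6 CPM in LPS+nAAT lungs and 2188 to 2765 CPM in LPS lungs, also without overlap. Atp6v0d2 (0.60, 0.0506 for log2 fold change and adjusted p), Ear2 (0.59, 0.0585) and Pparg, the lineage factor of alveolar macrophages (0.50, 0.0585), did not pass.

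Of 25 neutrophil markers 1 was called, beside 0.595% over all genes tested. It was the formyl peptide receptor Fpr2, with 60.0 ± 5.82 CPM in LPS+nAAT lungs and 42.6 ± 5.49 CPM in LPS lungs (SD, n = 5 each, with log2 fold change 0.49 ± 0.11 SE, edgeR adjusted p = 0.0391). Here 20 members lay above 0, and the median log2 fold change was 0.45. The summed level of all 26 listed markers was 723 to 1121 CPM in LPS+nAAT lungs and 684 to 928 CPM in LPS lungs. The next by p, Fpr1, its relative (0.50, 0.0578 for log2 fold change and adjusted p), Mmp8, the neutrophil collagenase (1.11, 0.0892), and Clec4d, a lectin receptor (0.34, 0.147), did not pass. None of the 25 monocyte and interstitial macrophage markers was called (median 0.04).

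The 65 called genes in no list were sorted by role by hand, with their calls known. Such a role has no count of tested genes to set it against, and 77 of all 102 calls were higher, so the counts by role describe the calls and no gene group. Immune receptors and surface proteins made up 8 of these calls, with log2 fold changes of 0.33 to 0.64. With the GC offset 2 of the 8 stayed called, C3ar1 and Cd200r1, and in the fit of LPS+nAAT, LPS and air libraries only Clec4n did (adjusted p = 0.0459), C3ar1 having 0.0516. C3ar1, the receptor of a complement anaphylatoxin, had 8.81, 11.8, 10.9, 13.5 and 10.9 CPM in LPS+nAAT lungs, against 7.07, 6.51, 7.51, 6.73 and 8.03 CPM in LPS lungs. Its groups did not overlap, air lungs had 3.46, 4.02 and 3.06 CPM, and the call held in every fit that left out 1 library (log2 fold change 0.64 ± 0.11 SE, edgeR adjusted p = 0.0101). The chemokine receptor Ccr1 had 30.6 ± 5.91 CPM in LPS+nAAT lungs and 19.9 ± 3.77 CPM in LPS lungs (SD, n = 5 each, with log2 fold change 0.62 ± 0.13 SE, edgeR adjusted p = 0.0303), the inhibitory receptor Cd200r1 17.9 ± 2.17 CPM in LPS+nAAT lungs and 11.8 ± 2.08 CPM in LPS lungs (SD, n = 5 each, with log2 fold change 0.60 ± 0.12 SE, edgeR adjusted p = 0.0176) and the lectin receptor Clec4n 66.6 ± 7.91 CPM in LPS+nAAT lungs and 47.3 ± 1.22 CPM in LPS lungs (SD, n = 5 each, with log2 fold change 0.49 ± 0.10 SE, edgeR adjusted p = 0.0233). Tlr7, the sensor of single-stranded RNA, Lair1, a collagen-binding inhibitory receptor, the tetraspanin Cd53 and Il18r1 completed this group, with log2 fold changes of 0.52, 0.61, 0.56 and 0.33. Which cells these values came from, and whether more cells or more RNA per cell lay behind them, was not tested.

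Another 9 calls, with log2 fold changes of 0.32 to 0.52, were of genes of lysosomes, vesicles and membrane traffic, and 5 of them stayed called with the GC offset. They included Asah1, acid ceramidase (0.44), Ctsh, cathepsin H (0.33), Arl8b, a lysosomal GTPase (0.42), and Retreg1, a receptor for autophagy of the endoplasmic reticulum (0.45). Ctsh had 379, 375, 382, 383 and 369 CPM in LPS+nAAT lungs, against 299, 315, 308, 280.4 and 298 CPM in LPS lungs, without overlap.

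Of 5 called transporters and channels, 4 rose, including the drug efflux pump Abcg2 (0.53) and the copper importer Slc31a1 (0.44), and the potassium channel Kcnk5 fell by 0.55 (log2), with 7.69, 7.99, 9.22, 7.56 and 7.74 CPM in LPS+nAAT lungs, against 11.4, 11.6, 13.4, 12.7 and 9.78 CPM in LPS lungs. Kcnk5 did not overlap between groups, and its call was lost without LPS replicate 1104 (adjusted p = 0.0704) or LPS+nAAT replicate 4104 (0.0604).

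Of 10 called cytoskeletal genes 7 rose, among them the actin bundlers Pls1 (0.45) and Pls3 (0.37), and 3 fell. The largest fall was that of Carmil3, a regulator of actin capping (chr14:55490651-55508272, plus strand), which had 2.33, 2.80, 2.01, 1.95 and 2.27 CPM in LPS+nAAT lungs, against 4.53, 4.10, 3.13, 4.12 and 4.27 CPM in LPS lungs. Levels were low, the groups did not overlap, and Carmil3 was 1.76-fold lower (log2 fold change -0.81 ± 0.15 SE, edgeR adjusted p = 0.0112) in a call kept in each fit without 1 library.

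Of 9 called enzymes 7 rose and 2 fell. Nt5e, the ectonucleotidase that makes extracellular adenosine, had 131, 138, 134, 157 and 162 CPM in LPS+nAAT lungs, against 88.4, 91.0, 112, 107 and 85.7 CPM in LPS lungs. The groups did not overlap, and air lungs had 126, 139.8 and 155 CPM (log2 fold change 0.58 ± 0.10 SE, edgeR adjusted p = 0.00807 for LPS+nAAT over LPS; LPS over air -0.54, 0.00422). Arg2, the mitochondrial arginase, had 28.9 ± 1.42 CPM in LPS+nAAT lungs and 21.5 ± 2.87 CPM in LPS lungs (SD, n = 5 each, with log2 fold change 0.43 ± 0.09 SE, edgeR adjusted p = 0.0303), and Glrx, glutaredoxin, 33.2 ± 1.58 CPM in LPS+nAAT lungs and 23.8 ± 2.14 CPM in LPS lungs (SD, n = 5 each, with log2 fold change 0.48 ± 0.09 SE, edgeR adjusted p = 0.0136). Hs3st1, a heparan sulfate sulfotransferase, had 15.3 ± 2.66 CPM in LPS+nAAT lungs and 23.3 ± 3.47 CPM in LPS lungs (SD, n = 5 each) and fell (log2 fold change -0.61 ± 0.12 SE, edgeR adjusted p = 0.0173).

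Meis1, a homeobox transcription factor, had 49.0, 48.9, 45.4, 43.5 and 41.4 CPM in LPS+nAAT lungs, against 66.1, 61.7, 70.9, 64.1 and 67.8 CPM in LPS lungs. Its groups stood apart (log2 fold change -0.53 ± 0.09 SE, edgeR adjusted p = 0.00932), with air lungs at 78.9, 88.4 and 78.0 CPM. Uaca, an ankyrin repeat protein, had 51.4 ± 7.48 CPM in LPS+nAAT lungs and 79.0 ± 7.86 CPM in LPS lungs (SD, n = 5 each, with log2 fold change -0.62 ± 0.11 SE, edgeR adjusted p = 0.0101). Ankrd55 had 2.39, 2.43, 1.59, 1.90 and 1.52 CPM in LPS+nAAT lungs, against 3.91, 3.75, 3.37, 3.03 and 2.81 CPM in LPS lungs. It was 1.70-fold lower (log2 fold change -0.77 ± 0.17 SE, edgeR adjusted p = 0.0330), a call lost in 6 of the 10 fits without 1 library, with an adjusted p of up to 0.0903 without LPS+nAAT replicate 4104. Rai2 had 5.86 ± 0.424 CPM in LPS+nAAT lungs and 9.48 ± 1.60 CPM in LPS lungs (SD, n = 5 each, with log2 fold change -0.69 ± 0.12 SE, edgeR adjusted p = 0.0101), and Tmem117, a membrane protein, had 3.49 ± 0.441 CPM in LPS+nAAT lungs and 1.84 ± 0.559 CPM in LPS lungs (SD, n = 5 each, with log2 fold change 0.91 ± 0.20 SE, edgeR adjusted p = 0.0338). In the clock list of 21 genes 1 was called, beside 0.595% over all genes tested. It was the repressor Bhlhe41, with 35.0 ± 2.68 CPM in LPS+nAAT lungs and 23.3 ± 4.02 CPM in LPS lungs (SD, n = 5 each, with log2 fold change 0.59 ± 0.11 SE, edgeR adjusted p = 0.0173). Its relative Bhlhe40 (0.34, 0.0595 for log2 fold change and adjusted p), Nr1d1 (0.58, 0.0920) and Per1 (-0.58, 0.133) did not pass.

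Most lists of lung cell types held no called gene: alveolar type 2 (22 members, median log2 fold change 0.09), alveolar type 1 (16, 0.17), airway epithelium (24, -0.09), fibroblast and smooth muscle (26, -0.05), T and NK cells (26, 0.13) and B and plasma cells (20, -0.16). Of the 16 alveolar type 1 markers 13 lay above 0. In 3 of the 16 the groups did not overlap, all 3 higher, beside 3.04% over all genes tested. In the endothelial list of 28 genes Klf2 was the only call (median -0.14), beside 0.595% called over all genes tested. Nor was any of 30 type I interferon stimulated genes called (0.12).

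Markers of tissue taken along with the lung varied between libraries. Heart and skeletal muscle markers summed to 206, 223, 158, 819 and 345 in LPS+nAAT libraries, against 342, 498, 769.8, 577 and 254 in LPS libraries (CPM), with replicate 4104 highest of all 10 and the groups overlapping. These sums cover all 22 markers. Of the 17 that were tested, the median log2 fold change was -0.69, with none called. All 10 liver markers summed to 8.86 to 11.96 CPM in LPS+nAAT lungs and 6.66 to 15.7 CPM in LPS lungs, so the sums overlap. Of these markers 7 were tested, with a median log2 fold change of -1.34, 6 below 0 and none called. The part of these tissues in the calls was not tested.

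**Figure D3:**
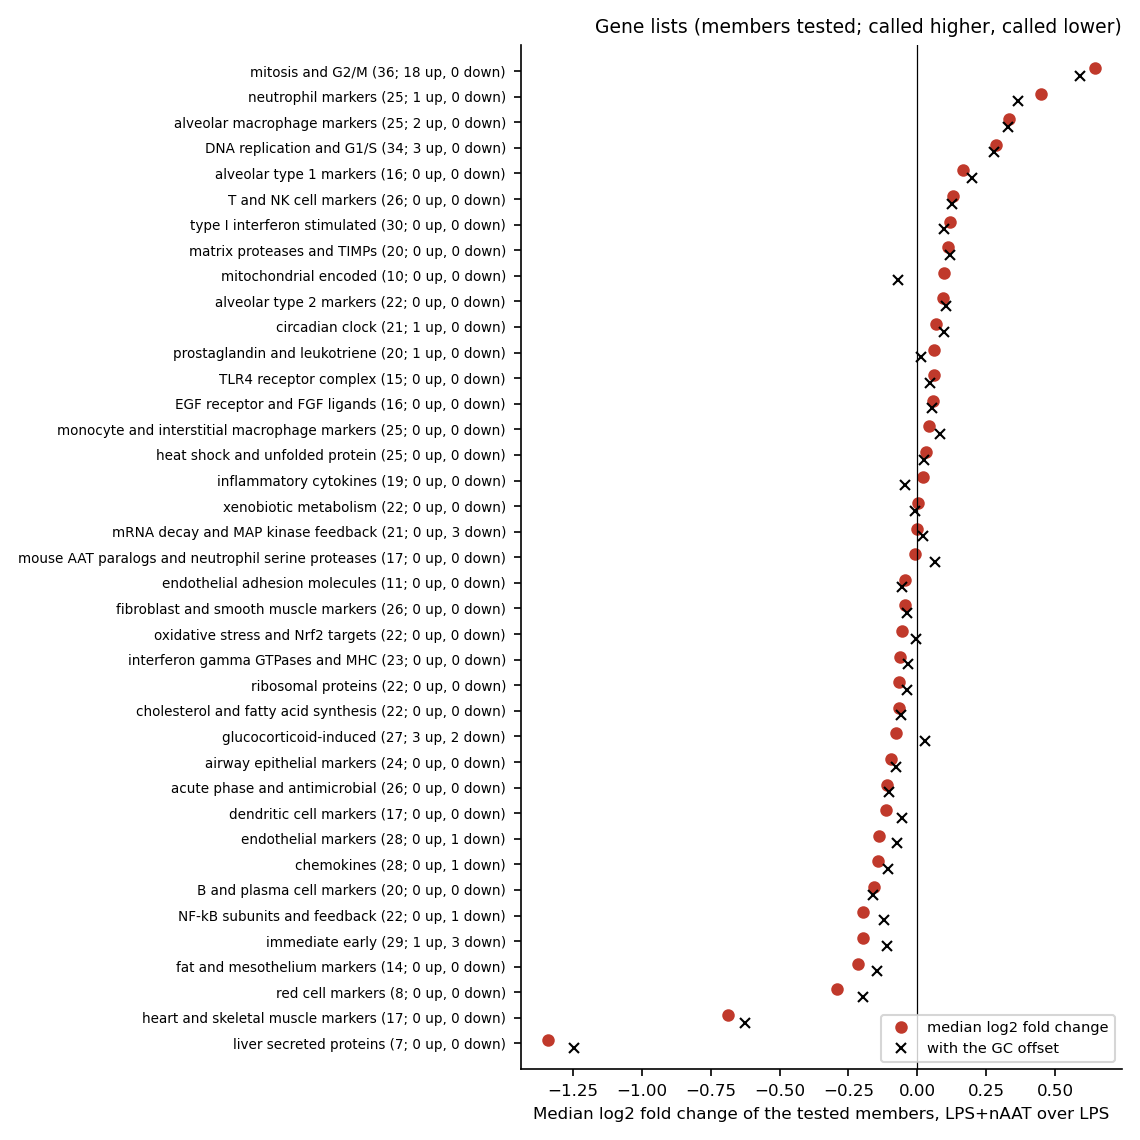
Median log2 fold change (LPS+nAAT over LPS) of the tested members of each of the 39 gene lists, as circles, and with the GC offset, as crosses; labels give members tested and called. The mitosis list is highest at 0.64, and the heart and liver lists, which hold no called gene, are lowest at -0.69 and -1.34.

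Counts followed the GC content of transcripts differently from library to library. The slope of log2 CPM on exon GC, relative to the mean of the 10 libraries and per 10 percentage points of GC, was 0.03, -0.00, -0.23, -0.22 and -0.00 in LPS+nAAT replicates 4101 to 4105, against 0.14, 0.30, -0.04, 0.13 and -0.11 in LPS replicates 1101 to 1105. Replicates 4103 and 4104 fell steeply with GC and replicate 1102 rose steeply, while the other 7 lay between. Per unit of GC fraction the group difference was -1.72 (exact permutation test over the 252 assignments of the 10 libraries, two-sided p = 0.111, smallest possible 0.00794). Slopes on exon length per doubling differed by 0.0159 (p = 0.627, same exact permutation test).

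Fold changes followed GC in the same direction. From the lowest to the highest of 10 classes of exon GC, the median log2 fold change stepped down in order, at 0.18 in the lowest class (GC up to 41.5%) and -0.15 in the highest (GC of at least 57.3%). Of the 77 higher calls, 60 fell in the 4 classes of lowest GC, and of the 25 lower calls, 14 fell in the 4 classes of highest GC. The median exon GC was 44.1% in higher calls and 52.7% in lower calls, beside 49.5% over all genes tested.

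An offset per library that removes its curve of log2 CPM against GC flattened the medians to between 0.00 and 0.01 and left 78 calls (0.455%), 56 higher and 22 lower. Of the 102 calls, 61 were kept and 41 lost, and 17 genes were called that had not been. The mitosis list kept 15 calls with a median of 0.59, and the replication list 2 with 0.28. Zbtb16 (3.22, adjusted p = 0.0283), Fkbp5 (1.56, 0.0112), Klf10 (0.91, 0.000706), Cxcl2 (-1.35, 0.0112) and Zfp36 (-1.03, 0.000292) stayed called with the offset in all libraries. Zbtb16 was not called in the fit of LPS+nAAT, LPS and air libraries (adjusted p = 0.0506), in the fit of the 10 libraries (0.0969) or with the GC offset in these 10 (0.114). Cxcl2 was called in the first (0.0288) and the last (0.0303) of these 3 fits and not in the 10 libraries without the offset (0.0642), while Fkbp5, Klf10 and Zfp36 were called in all 3.

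Cxcl1 became a call at -0.92 (adjusted p = 0.0408), so that 2 chemokines were called lower, and so did the mitotic activator Cdc20 (0.54, 0.0158), the replication-coupled methylation factor Uhrf1 (0.54, 0.0408) and the clock repressor Nr1d1 (0.69, 0.0261), all 3 higher. Calls lost included Fos (0.0520), Csrnp1 (0.0887), Spp1 (0.137), Fpr2 (0.225), Ccr1 (0.0944), Clec4n (0.0618) and Mki67 (0.0539), each given as its adjusted p with the offset. Olr1 stayed called (0.43, 0.0338).

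**Figure D4:**
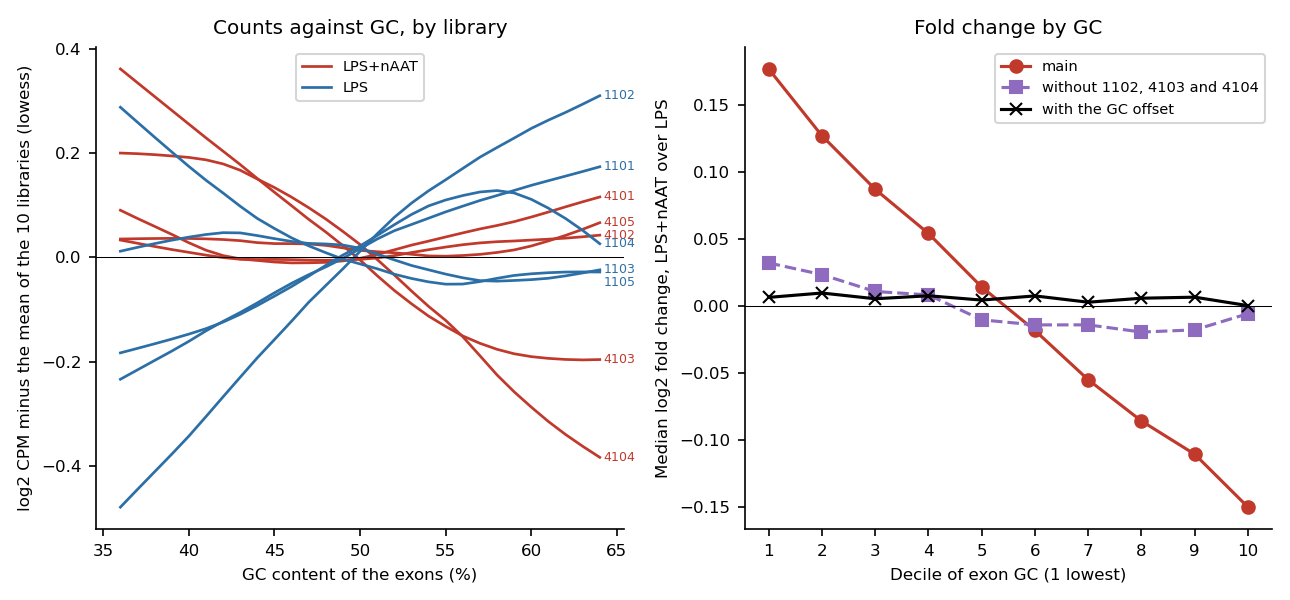
Left, lowess curves of log2 CPM minus the mean of the 10 libraries against exon GC, 1 line per library; right, median log2 fold change (LPS+nAAT over LPS) by decile of exon GC in the main fit, without replicates 1102, 4103 and 4104, and with the GC offset. The main medians step down, with 0.18 in decile 1 and -0.15 in decile 10, and the offset medians stay between 0.00 and 0.01.

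**Figure D5:**
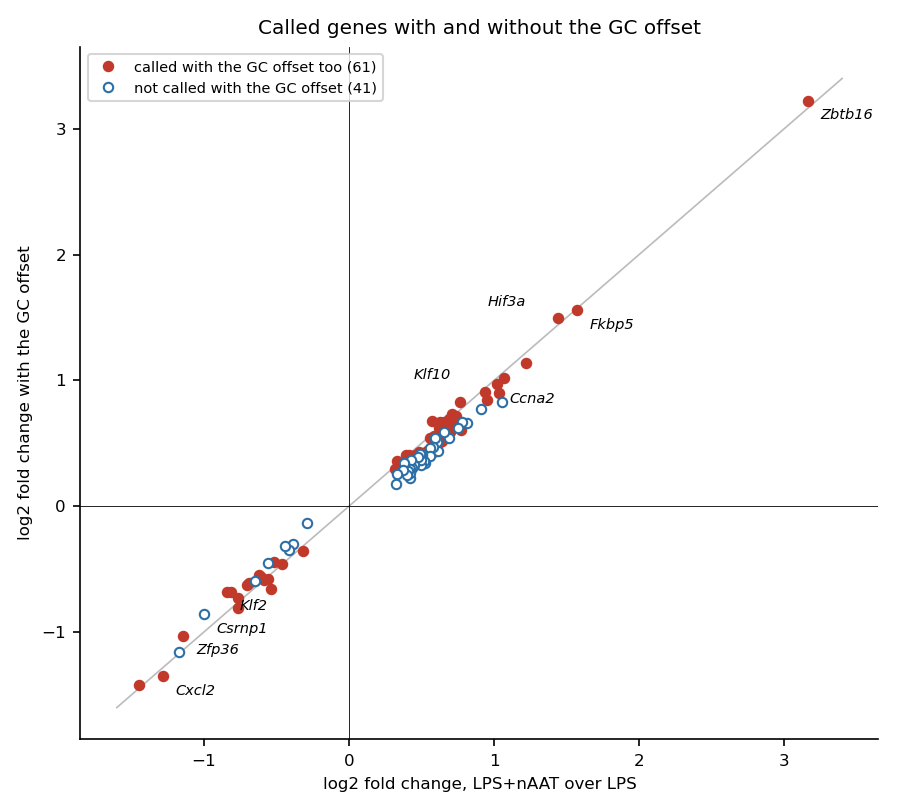
Log2 fold change (LPS+nAAT over LPS) of the 102 called genes with the GC offset against that without it; filled points stayed called (61), open points did not (41), and the line marks equal values. Genes with large changes stay near the line, and the open points other than Depdc1a and Nat8f7 have log2 fold changes under 1 in size.

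Without replicates 1102, 4103 and 4104, the 3 of steepest slope, the medians by GC class lay between -0.02 and 0.03. The 3 were picked by their slope, so the flatter medians follow from the choice, and fewer libraries remained in both groups. In that fit 2 genes were called, Klf10 (0.87, adjusted p = 0.0345) and Zfp36 (-1.01, adjusted p = 0.0400). The mitosis list had no call there, with a median of 0.59 over its 36 genes. Across the GC offset, the fit of 13 libraries and that of 10 libraries, 12 calls were kept in all 3, among them Ccna2, Fkbp5, Hif3a, Klf10, Klf11, Klf2, Meis1, Nt5e, Spry4, Uaca and Zfp36. In every fit that left out 1 library 17 were kept, among them C3ar1, Carmil3, Ccna2, Ccnb1, Cdc25c, Fkbp5, Klf10, Klf11, Meis1, Nt5e, Rai2, Rrm2, Spag5, Spry4, Uaca and Zfp36. Klf10 and Zfp36 were called in each of the 24 other fits run.

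Other called genes described above depended on single libraries. Each replicate number here stands for a fit without that library alone, from LPS+nAAT (4101 to 4105) or LPS (1101 to 1105). Pclaf lost its call without 1101, 1102, 1104, 1105, 4102, 4103, 4104 and 4105 (adjusted p of 0.0505 to 0.140). Ube2c was no longer called without 1101, 1102, 1104, 4102, 4103 and 4105 (adjusted p of 0.0522 to 0.0991). Kif15 lost its call without 1101, 1102, 1104, 4102 and 4103 (adjusted p of 0.0666 to 0.101). Prc1 was no longer called without 1101, 1102 and 1104 (adjusted p of 0.0526 to 0.0801). Tmem117 lost its call without 1101, 1102, 1104, 1105, 4101, 4103, 4104 and 4105 (adjusted p of 0.0538 to 0.0962). Fos was no longer called without 1102, 1104, 4101, 4102, 4103, 4104 and 4105 (adjusted p of 0.0538 to 0.123). Dusp1 lost its call without 1102, 1104, 4102, 4103 and 4104 (adjusted p of 0.0510 to 0.101). Tnfaip3 was no longer called without 1102, 1103, 1104, 4101, 4102, 4103, 4104 and 4105 (adjusted p of 0.0552 to 0.130). Olr1 lost its call without 1101, 1102, 1104, 4102, 4103 and 4104 (adjusted p of 0.0600 to 0.118). Spp1 was no longer called without 1101, 1102, 1104, 1105, 4101, 4103, 4104 and 4105 (adjusted p of 0.0526 to 0.0934). Fpr2 lost its call without 1102, 1103, 1104, 1105, 4101, 4102, 4103 and 4104 (adjusted p of 0.0529 to 0.140). Ccr1 was no longer called without 1101, 1102, 1104, 4102, 4103 and 4104 (adjusted p of 0.0673 to 0.0903). Cd200r1 lost its call without 1102, 1104, 4103 and 4104 (adjusted p of 0.0589 to 0.0737). Clec4n was no longer called without 1101, 1102, 1104, 4103 and 4104 (adjusted p of 0.0526 to 0.0816). Bhlhe41 lost its call without 1104 and 4104 (adjusted p of 0.0620 to 0.0704). Arg2 was no longer called without 1101, 1102, 1103, 1104, 4103 and 4104 (adjusted p of 0.0502 to 0.11). Glrx lost its call without 1104 (adjusted p = 0.0598). Hs3st1 was no longer called without 1104, 4103 and 4104 (adjusted p of 0.0524 to 0.0704). Top2a lost its call without 1101, 1102, 1104, 4102, 4103 and 4104 (adjusted p of 0.0544 to 0.0877). Mki67 was no longer called without 1101, 1102, 1104, 4102, 4103 and 4104 (adjusted p of 0.0730 to 0.138). Prim1 lost its call without 1101, 1102, 1103, 1104, 4102, 4103, 4104 and 4105 (adjusted p of 0.0501 to 0.114). Ctsh was no longer called without 1101, 1102, 1104, 4103 and 4104 (adjusted p of 0.0582 to 0.101).

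Between the native and the oxidized protein, both after LPS, 59 genes were called (0.344%); this comparison shares the LPS+nAAT libraries with the one above. Libraries of LPS+oxAAT differ among themselves in a technical measure, mt-Nd6 as a percentage of mt-Nd5. It stood at 0.39, 0.83, 4.31, 4.21 and 3.75 in LPS+oxAAT replicates 5101 to 5105. In LPS+nAAT it was 0.43 to 0.68, and in LPS 0.42 to 1.14. The part of this measure in the values below was not tested. Cxcl2 was lower in LPS+nAAT than in LPS+oxAAT (2.87 to 3.80 CPM and 4.81 to 13.6 CPM; log2 fold change -1.32, adjusted p = 0.0262), and so was Meis1 (41.4 to 49.0 CPM and 62.3 to 80.2 CPM; -0.62, 0.00362). Also lower in LPS+nAAT were Hs3st1 (-0.69, 0.0182), Rai2 (-0.56, 0.0461) and Prr5l (-0.51, 0.0435), and higher were Tpx2 (0.55, 0.0485), Knstrn (0.58, 0.0262), Clec4n (0.52, 0.0288), Arg2 (0.48, 0.0262), Glrx (0.40, 0.0495) and Ctsh (0.32, 0.0461), each with its log2 fold change and adjusted p. Zbtb16 (125 to 259 CPM and 39.3 to 223 CPM; adjusted p = 0.720), Fkbp5 (0.180), Klf10 (0.858) and Ccna2 (0.235) did not differ at the threshold. Against LPS+recAAT, where mt-Nd6 stood at 3.39 to 4.5% of mt-Nd5, 331 genes were called (1.93%). Every LPS+recAAT library lay above every LPS+nAAT library in this measure. The preparation and whatever sets the measure therefore cannot be told apart in this comparison. Of the genes called between LPS+nAAT and LPS, lower in LPS+nAAT than in LPS+recAAT were Cxcl2 (-1.48, 0.00425), Meis1 (-0.63, 0.00202) and Hs3st1 (-0.63, 0.00711), and higher were Spp1 (0.82, 0.00202), Il18r1 (0.41, 0.00636), Clec4n (0.54, 0.00721), Nt5e (0.46, 0.0152), Nipal2 (0.34, 0.0227) and Tlr7 (0.45, 0.0459). Among those that did not pass, Zbtb16 had 125 to 259 CPM in LPS+nAAT lungs and 30.2 to 218 CPM in LPS+recAAT lungs (adjusted p = 0.415), Klf10 53.3 to 60.6 and 59.8 to 84.2 CPM (0.228), and Zfp36 95.8 to 127 and 111 to 156 CPM (0.447).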

How the data were processed

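The authors deposited 1 table of raw read counts, with an Ensembl ID per row, 23 library columns and no normalization. RNA was prepared by stranded poly(A) selection, according to protocols in the labels. Tools named in the submitters' processing notes are STAR 2.4.0.1, HTSeq 0.11.1, FastQC 0.11.8 and Trimmomatic, as 0.36 and as 0.38, with build GRCm38; which annotation release was counted, and with which strand setting, is not given in the sources used here. Summary lines of the file stayed out of library sizes and tests: 6.79% to 9.14% of tallied reads fell on no feature in LPS+nAAT and 6.95% to 10.4% in LPS. Symbols, positions, exon length and GC came from GENCODE mouse release M21 (GRCm38), which named 40254 of 41388 IDs and gave GC for 17023 of 17148 tested genes.

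Counts of all 23 libraries entered 1 model with a mean per group (edgeR 4.0.16 in R 4.3.3, TMM, filterByExpr, robust quasi-likelihood F test, two-sided, Benjamini-Hochberg). SE is the fold change divided by the root of F. CPM values are TMM-scaled. P-values cover only the spread between libraries within groups, in which mouse, library preparation and counting cannot be separated with 1 library per mouse. The GC offset is a lowess curve per library (span 0.3) of log2 CPM with a prior count of 2. In simulated counts the scripts recovered log2 fold changes of 1 in size, larger than most called here, planted in well-counted genes. Every simulated gene had the same dispersion. The LPS+nAAT libraries had no GC trend or all had the same trend. The GC offset was therefore not tried on trends that differ between libraries of a group. Counting error weighs most on low genes, Cdc25c and Cxcl2 among them. No pair of libraries agreed within counting noise.

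The comparison, the gene lists, the roles and the motifs were chosen with earlier results of these data known. Named genes were the 12 largest called changes in each direction that had non-overlapping groups, an average log2 CPM of 0 or more and no predicted gene symbol (the first 6 with every library), called list members, members of small p in lists described, and a panel of LPS-induced genes; other called genes were grouped by role. A called gene that this rule would name is not reported here. Of the 102 called genes 81 had a promoter in RefSeq's table. Motifs were searched on both strands: the cell cycle homology region (TTTGAA), the CCAAT box, the E2F site (GGCGGGAA), the glucocorticoid response element core (ACANNNTGT), the NF-kB site (GGNNTTTCC), the cyclic AMP response element (TGACGTCA), the AP-1 site (TGANTCA) and the E-box (CACGTG); they can overlap. Alternatives were DESeq2 1.42.0 size factors and Wald test, limma 3.58.1 voom, other filters, other sets of libraries, GC and length offsets, a replicate block and leaving out each library; the GC offset in 13 libraries and the fit without the 3 steepest libraries were chosen after seeing the data.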

Additional observations from a re-analysis of the deposited data

Results flagged for a closer look

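With 5 libraries per group, a value was singled out where its gap to the nearest library exceeded 0.71 of the range of its group (Dixon's test). Chance gives about 1 in 20 groups, and 44 groups of values were looked at. The summed CPM of heart and skeletal muscle markers was 819 in LPS+nAAT replicate 4104, where the other LPS+nAAT libraries had 158 to 345. Ribosomal protein genes took 2.64% of counts in LPS+nAAT replicate 4103, against 2.28% to 2.39% in the other LPS+nAAT libraries. Mitochondrial genes took 2.17% of counts in LPS replicate 1105, against 1.15% to 1.42% in the other LPS libraries. Replicates 4103 and 4104 are also 2 of the 3 libraries with the steepest trend of counts against GC.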

How the results depend on the processing

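The number of called genes, 102 in the main fit, was 102 with DESeq2 size factors, 142 with a stricter filter, 78 with the GC offset and 74 with the replicate block and GC offset together. It was 50 without a filter beyond 1 count, 38 with voom, 41 with LPS+nAAT, LPS and air libraries, 16 with only the 10 libraries, 26 with the GC offset in these 10, 50 with it in the 13, and 2 without the 3 libraries of steepest GC slope. It was 371 with the DESeq2 Wald test and 278 with the length offset. Leaving out 1 library gave 20 to 144 calls. There were 42 without LPS replicate 1101, 30 without 1102, 142 without 1103, 20 without 1104 and 144 without 1105. There were 94 without LPS+nAAT replicate 4101, 75 without 4102, 32 without 4103, 27 without 4104 and 68 without 4105. The smaller fits hold fewer libraries, and the cause of these shifts was not tested. The last digit of the mouse number gave 248 calls as a replicate block; deviations of same-numbered LPS+nAAT and LPS libraries correlated at -0.14 to 0.18, and 1 of 5 correlated best with its own number, so the numbers were not taken as pairs.

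The GC slope difference of -1.72 stayed between -1.81 and -1.67 with other genes, GC measures or scaling, and between -2.20 and -1.17 without 1 library (exact permutation p of 0.0635 to 0.23). Over named genes and alternatives, the direction held in all but 11 cases, in Lcn2 and Ccl2, neither of them called: Lcn2 (-0.06) was 0.0194 with the replicate block and GC offset, 0.0272 with the GC offset, 0.0168 with it in 10 libraries, 0.0131 with it in 13, 0.0213 without the 3 steepest libraries and -0.127 to 5.05e-06 without 1 library; Ccl2 (-0.01) was 0.0786 with voom, 0.0487 with the replicate block and -0.205 to 0.445 without 1 library. Depth limits genes under about 1 CPM, such as Il6, most.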
